A study of Homo sapiens with 12 samples.

Results

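The 37 genes of the human mitochondrial genome were followed in 12Z cells that carried an empty vector or mutant PIK3CA and received insulin or vehicle. Members were all gene rows whose symbol begins with MT-, 37 of the 60617 gene identifiers in each library. They comprise 13 protein-coding genes, 2 rRNA genes and 22 tRNA genes.

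12Z is an immortalized line of epithelial cells derived from ectopic endometriosis, and insulin signals through the PI3K pathway that the H1047R substitution in PIK3CA activates. In every group the cells first received a non-targeting siRNA pool and then, 24 h later, a plasmid by transient transfection. Control cells received empty pBabe vector and PIK3CA H1047R cells received pBabe carrying PIK3CA H1047R. The next day serum was removed, and after 4 h the cells received 100 nM insulin or vehicle for 24 h. The 4 groups of 3 libraries are named by plasmid and treatment (control or H1047R, then vehicle or insulin), and the 3 replicates were described as independent experiments. The model is 1 cell line in which the mutant was carried transiently on a plasmid, and gene counts do not separate plasmid PIK3CA RNA from that of the chromosomal gene. The comparisons ask how insulin acted in each kind of cell, how H1047R acted with and without insulin, and whether the insulin effects differed (difference of the insulin effects, PIK3CA H1047R cells minus control cells).

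The mitochondrial genome is a small circle that is transcribed from both strands by a dedicated polymerase, POLRMT, with the help of TFAM and TFB2M. Each strand gives long precursors that run through many genes, and the tRNAs that lie between the other genes are cut out to release the rRNAs and mRNAs. Its proteins are subunits of respiratory complexes I, III and IV and of ATP synthase (complex V), and most of the mature mRNAs carry short poly(A) tails, MT-ND6 being the known exception. Together these complexes supply the ATP made by oxidative phosphorylation.

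By the annotated strand, 28 of the genes lie on the transcript here called heavy-strand RNA (both rRNAs, 12 mRNAs and 14 tRNAs). The remaining 9 lie on light-strand RNA, namely MT-ND6 and 8 tRNAs. The genes abut or overlap in hg38 chrM (16569 bases), which bears on how reads can be counted, so the overlaps of mRNAs and the light-strand tRNA gene that the results turn on are shown, each 5′ to 3′. The first joins the ATP synthase genes, with the start codon of MT-ATP6 and the stop codon of MT-ATP8 in capitals (chrM:8527-8572, + strand, 46 bases). The second joins 2 complex I genes, with the 7 shared bases of MT-ND4L and MT-ND4 in capitals (chrM:10750-10776, + strand). The third is the tRNA-Pro gene MT-TP (chrM:15956-16023, - strand, 68 bases), shown because its row was the tRNA row with most reads.
MT-ATP8 and MT-ATP6 overlap: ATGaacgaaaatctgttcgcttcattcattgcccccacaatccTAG
MT-ND4L and MT-ND4 overlap: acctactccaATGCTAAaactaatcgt
MT-TP: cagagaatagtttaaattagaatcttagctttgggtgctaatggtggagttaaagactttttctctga

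Libraries were made by poly(A) selection with fragmentation and sequenced as 50 bp pairs, and a read pair that overlapped several genes on the counted strand was set aside as ambiguous (3.31% to 3.61% of reads). Values are therefore amounts of captured RNA assigned to 1 gene, and tail length was not measured. Of the 37 members, 30 passed the filter of 1 count per library on average, namely all 13 mRNAs, both rRNAs and 15 of 22 tRNAs.

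Gene counts per library ranged from 21483124 to 37918025, highest in H1047R insulin (30071951 to 37918025). Reads placed at several genomic sites, which are not in the gene counts, made up 14.9 ± 0.213% in control vehicle, 14.3 ± 0.950% in control insulin, 14.8 ± 0.492% in H1047R vehicle and 8.98 ± 0.517% in H1047R insulin (mean ± SD, n = 3). The 3 H1047R insulin libraries thus stood apart from all others by this measure, and its part in the results below was not tested. PIK3CA stood at 80.9 to 89.0 CPM (gene counts scaled to a common library total) in control libraries, 180.1 to 312 in H1047R vehicle and 714 to 734 in H1047R insulin, so the plasmid label held but the level differed with insulin. In PIK3CA H1047R cells an effect of insulin and one of the higher PIK3CA level cannot be told apart. The same holds for the difference of the insulin effects. The epithelial keratins KRT8 (1359 to 1504 CPM) and KRT18 (839 to 1121) were abundant, whereas EPCAM (0.379 to 1.06) and CDH1 (1.11 to 2.38) were near 0 and VIM (1726 to 2348) and COL1A1 (1965 to 3005) were high. The leukocyte gene PTPRC reached 1.36 CPM and the endothelial gene PECAM1 0.523 at most.

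The mitochondrial share of gene counts was lower in the insulin libraries of both kinds of cell. In control vehicle the 37 genes took 2.96, 2.93 and 2.92% of gene counts, in control insulin 2.45, 2.53 and 2.58%. In H1047R vehicle the share was 2.90, 2.89 and 2.78% and in H1047R insulin 2.20, 2.18 and 2.16%. The groups did not overlap in any of the 4 comparisons, and H1047R insulin was lowest. Each pairwise difference had an exact two-sided permutation p of 0.1, the smallest that 3 against 3 libraries allow. Stratified by plasmid, the insulin minus vehicle difference was -0.548 percentage points, and stratified by treatment the H1047R minus control difference was -0.211, each with an exact permutation p of 0.005, the smallest possible, and an adjusted p of 0.09 over the 42 tests of this family. Neither passed 0.05 after adjustment. In these bulk libraries fewer mitochondrial genomes, less transcription and less stable RNA cannot be told apart, nor can fewer cells of a type and less RNA per cell.

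**Figure D1:**
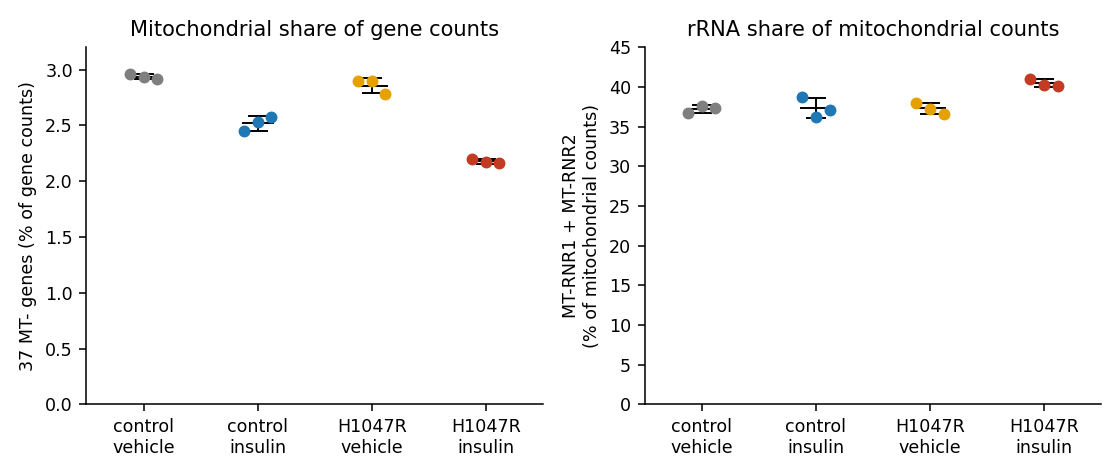
The left panel plots the percent of gene counts assigned to the 37 mitochondrial genes in each library (points) with mean and SD (lines) for the 4 groups, and the right panel plots the percent of mitochondrial counts that belonged to the 2 rRNAs. The mitochondrial share lay between 2.92% and 2.96% in control vehicle and between 2.16% and 2.20% in H1047R insulin, whereas the rRNA share was highest in H1047R insulin (40.1% to 41.1%).

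By gene, the fitted counts moved in 1 direction. At FDR < 0.001 (edgeR quasi-likelihood test with Benjamini-Hochberg adjustment over 22756 genes), insulin lowered 8 members in control cells, against 1.15% of all genes tested, and 17 members in PIK3CA H1047R cells, against 9.8%. H1047R in insulin lowered 13, against 12%, and the difference of the insulin effects was called negative for 11, against 4.49%. H1047R in vehicle changed 0 members by edgeR and 0 by DESeq2, against 0.0176% lowered among all genes, with 6 below an unadjusted p of 0.05, all on the lower side, against 11.9% of all genes in either direction. No member was called higher in any comparison, against 0.483%, 9.85%, 0.141%, 11.4% and 4.58% of all genes for the insulin effect in control and in PIK3CA H1047R cells, the H1047R effect in vehicle and with insulin, and the difference. The median log2 fold change of the 13 mRNAs was -0.22 for insulin in control cells, -0.49 for insulin in PIK3CA H1047R cells, -0.071 for H1047R in vehicle and -0.42 for H1047R in insulin, beside 0.0037, -0.00060, 0.0022 and -0.022 over all genes. The comparisons share libraries, so these values stand side by side and are not independent.

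In control cells the count of 8 ranged from 6 to 13 when single libraries were left out, and was 13 without H1047R vehicle replicate 1. The direction of every mRNA and rRNA was negative for insulin in both kinds of cell.

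Between vehicle and insulin in PIK3CA H1047R cells, all 15 rRNA and protein-coding genes were lower without overlap, against 22.2% of all genes tested. For 13 of the 15, H1047R insulin lay below all other libraries, against 15.2% of all genes.

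**Figure D2:**
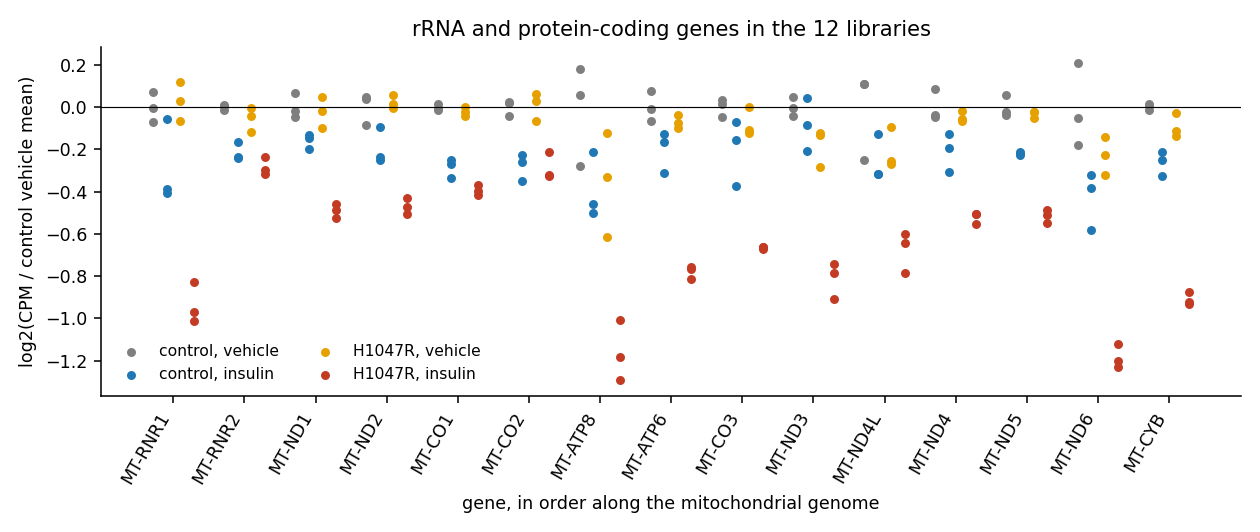
For the 15 rRNA and protein-coding genes in order along the genome, each point is a library's log2 ratio of CPM to the mean of the 3 control vehicle libraries, coloured by group. H1047R insulin libraries (red) lie lowest for 13 of the 15 genes without overlap with any other group, and overlap control insulin for MT-RNR2 and MT-CO2.

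Levels between genes were compared per kilobase of whole gene. No allowance was made for reads lost to nuclear copies, which differ between genes (values below). MT-ND6 is also known to lack the tail that these libraries select. The order is therefore that of captured and counted RNA. In control vehicle the 16S rRNA MT-RNR2 led with 6192 ± 54.2 CPM per kb (mean ± SD, n = 3). The cytochrome c oxidase mRNAs MT-CO2 (3208 ± 83.9) and MT-CO3 (3202 ± 95.3) came next with overlapping libraries, followed by MT-ND3 (2401 ± 73.8) and MT-CO1 (2399 ± 23.8), which also overlapped. MT-ND4 (2096 ± 108), MT-CYB (1714 ± 17.5), MT-RNR1 (1449.6 ± 70.8) and MT-ATP6 (1403 ± 69.4) formed the middle of the order, the last 2 overlapping. MT-ND2 (988 ± 49.3), MT-ND4L (977 ± 134), MT-ATP8 (965 ± 153) and MT-ND1 (921 ± 37.9) could not be ordered by their libraries. MT-ND5 (580.1 ± 20.7) and the light-strand mRNA MT-ND6 (234 ± 32.7) were lowest. MT-RNR2 was first and MT-ND6 last in all 4 groups without overlap, and MT-ND5 had the next lowest mean in each, though its libraries overlapped those of MT-ATP8 in H1047R insulin. In H1047R insulin MT-CO3 (2018 ± 8.14) fell below MT-CO2 (2633 ± 119.8) without overlap, whereas the pair overlapped in the other 3 groups.

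The 2 rRNAs, which form the small and large subunits of the mitochondrial ribosome, gave unlike values. MT-RNR1 (12S) stood at 1318, 1452 and 1379 CPM in control vehicle, 1330.5, 1042 and 1058 in control insulin, 1408, 1500.1 and 1322 in H1047R vehicle and 686, 705 and 780.5 in H1047R insulin. The H1047R insulin libraries lay far below the rest, and 1 control insulin library lay within the vehicle range. Insulin lowered MT-RNR1 in PIK3CA H1047R cells by 48.7% (log2 -0.96, SE 0.056, edgeR adjusted p = 2.21e-17). In control cells the log2 value was -0.27 with an edgeR adjusted p of 0.00103, above the threshold of 0.001. By DESeq2 the adjusted p was 0.108. The effect was called in 9 of 21 alternative settings, 1 of them without control insulin replicate 1 (edgeR adjusted p = 1.33e-07).

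MT-RNR2 (16S) stood at 9676, 9723 and 9559 CPM in control vehicle, 8191, 8179 and 8597 in control insulin, 9611, 9367 and 8896 in H1047R vehicle and 8181, 7855 and 7741 in H1047R insulin. Both insulin groups lay below both vehicle groups and overlapped each other. Its insulin effect was -0.21 in control cells and -0.23 in PIK3CA H1047R cells, both called, and the difference of the effects was -0.015 on the log2 scale (95% confidence interval -0.10 to 0.074). For MT-RNR1 that difference was -0.69 (-0.85 to -0.53, edgeR adjusted p = 8.35e-09). The rRNA share of mitochondrial counts was 37.2 ± 0.491%, 37.4 ± 1.28%, 37.3 ± 0.688% and 40.5 ± 0.513% in the same order of groups, and MT-RNR2 took 37.1% ± 0.731 of the counts of the 15 rRNA and protein-coding genes in the last group against 32.4% ± 0.673 in H1047R vehicle.

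Complex I, the NADH dehydrogenase, takes 7 subunits from the mitochondrial genome. All 7 mRNAs fell with insulin in PIK3CA H1047R cells, with log2 values from -0.96 for MT-ND6 to -0.47 for MT-ND1. In control cells all 7 values were negative as well, and 3 of 7 were called at FDR < 0.001 (MT-ND4, MT-ND5 and MT-ND6). MT-ND4 stood at 3059, 2791 and 2814 CPM in control vehicle, 2333, 2642 and 2527 in control insulin, 2847, 2775 and 2761 in H1047R vehicle and 2037, 2031 and 1970.4 in H1047R insulin. H1047R insulin lay below every other library, and control insulin lay below both vehicle groups. The insulin effect was -0.21 (SE 0.037) in control cells and -0.47 (SE 0.037) in PIK3CA H1047R cells. The call in control cells (edgeR adjusted p = 1.77e-04) did not hold without replicate 1 of control vehicle (0.00568), without replicate 1 of control insulin (0.00567) or with the filter of 1 CPM in 3 libraries (0.00133). The difference of -0.27 was called (edgeR adjusted p = 1.65e-04). It was no longer called without control vehicle replicate 2 (edgeR adjusted p = 0.00132), control insulin replicate 2 (0.00233) or H1047R insulin replicate 3 (0.00130), and with the filter of 1 CPM in 3 libraries (0.00114).

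MT-ND3, a small subunit at the membrane domain, had the insulin value nearest 0 of the 15 genes in control cells. It stood at 829, 857 and 806 CPM in control vehicle, 784, 719.8 and 857 in control insulin, 683, 759 and 763 in H1047R vehicle and 442, 482 and 497 in H1047R insulin. The control groups overlapped and H1047R insulin stood alone at the bottom. Insulin gave -0.079 (-0.17 to 0.016, not called) in control cells and -0.63 (-0.73 to -0.54) in PIK3CA H1047R cells. The difference of -0.55 was called (edgeR adjusted p = 2.10e-08).

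MT-ND1 (-0.47), MT-ND2 (-0.49) and MT-ND5 (-0.48), core membrane subunits, fell with insulin in PIK3CA H1047R cells, and their differences of the insulin effects were -0.31, -0.30 and -0.27, all called. MT-ND4L also fell in PIK3CA H1047R cells (-0.47), but its difference of -0.22 (-0.39 to -0.041) was not called (edgeR adjusted p = 0.0712).

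Complex III takes only cytochrome b, encoded by MT-CYB, from this genome. MT-CYB stood at 1961, 1973 and 1934 CPM in control vehicle, 1559, 1687 and 1643 in control insulin, 1778, 1918 and 1805 in H1047R vehicle and 1033, 1068 and 1024 in H1047R insulin. No pair of groups overlapped, with control vehicle highest and H1047R insulin lowest. Insulin lowered it by 16.7% in control cells (edgeR adjusted p = 8.25e-07) and by 43.2% in PIK3CA H1047R cells (adjusted p = 1.39e-21). The difference of -0.55 (-0.65 to -0.45) had the lowest adjusted p of the members, 1.50e-11.

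Complex IV, cytochrome c oxidase, takes its 3 catalytic-core subunits from this genome. For 2 of them no difference of the insulin effects was called. MT-CO1 stood at 3668, 3690.2 and 3739 CPM in control vehicle, 2934, 3106 and 3069 in control insulin, 3696, 3637 and 3587 in H1047R vehicle and 2863, 2775 and 2805 in H1047R insulin. Both insulin groups lay below both vehicle groups, with H1047R insulin lowest. MT-CO2 stood at 2129, 2232 and 2223, 1720.5, 1833 and 1878, 2293, 2239 and 2097 and 1751, 1756 and 1895 CPM in the same order of groups. Its 2 insulin groups overlapped and lay below both vehicle groups. The insulin effects were -0.28 and -0.37 for MT-CO1 and -0.28 and -0.30 for MT-CO2 in control and PIK3CA H1047R cells, all 4 called. The difference was -0.086 (-0.17 to 0.0018) for MT-CO1 and -0.018 (-0.12 to 0.089) for MT-CO2, neither called, so differences as large as the called ones of MT-CYB or MT-ND3 lay outside both intervals. MT-CO3 did differ, with -0.19 in control cells, -0.59 in PIK3CA H1047R cells and a called difference of -0.40 (edgeR adjusted p = 4.45e-06).

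Complex V takes MT-ATP6, which forms part of the proton channel, and the small subunit MT-ATP8 from 1 bicistronic mRNA with the overlap shown above. MT-ATP6 stood at 1006, 948 and 912 CPM in control vehicle, 771, 876 and 851 in control insulin, 892, 929.9 and 906 in H1047R vehicle and 566, 561 and 544 in H1047R insulin. MT-ATP8 stood at 227, 208 and 165, 145, 141 and 172, 130.4, 159 and 183 and 81.7, 99.4 and 88.2 CPM, with a wide spread in both vehicle groups. For both genes H1047R insulin lay below every other library. Insulin lowered MT-ATP6 by 38.8% and MT-ATP8 by 43.0% in PIK3CA H1047R cells (edgeR adjusted p = 7.39e-18 and 2.16e-10). The difference of the insulin effects was -0.51 (adjusted p = 3.39e-09) for MT-ATP6 and -0.42 (adjusted p = 0.00691, not called) for MT-ATP8. Their log2 values differ although the proteins share an mRNA, and pairs over the shared bases were not assigned to either gene.

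**Figure D3:**
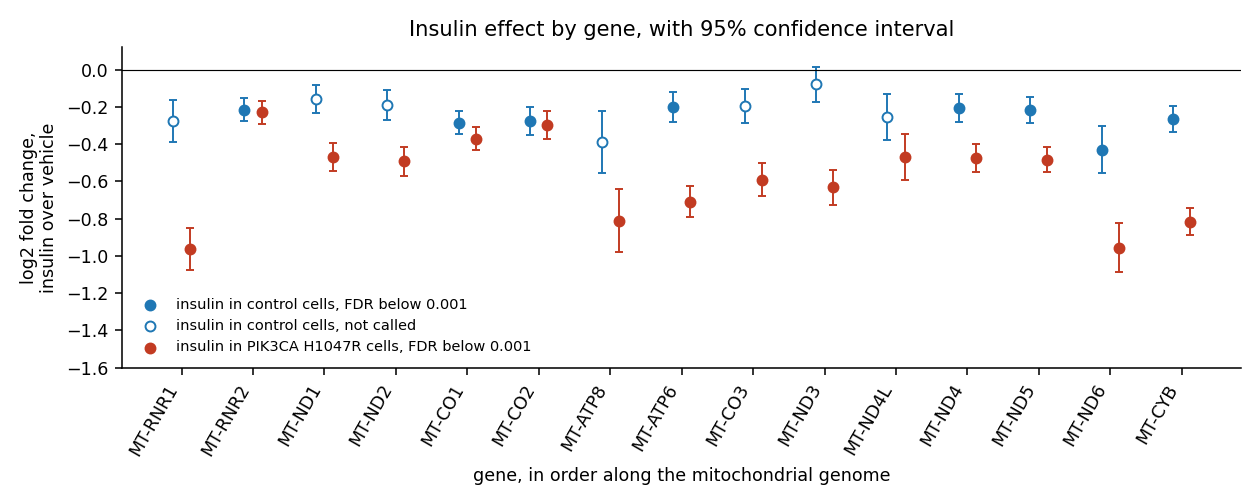
Points give each gene's log2 fold change of insulin over vehicle in control cells (blue) and PIK3CA H1047R cells (red), filled where FDR was below 0.001, and bars give the 95% confidence interval of the fit. Blue values lie between -0.43 and -0.079, red values between -0.96 and -0.23, and the 2 intervals overlap most for MT-RNR2 and MT-CO2.

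Without insulin, the values of H1047R against control ranged from -0.35 for MT-ATP8 to 0.028 for MT-RNR1 on the log2 scale. Of the 13 mRNAs, MT-ATP8 (-0.35, edgeR adjusted p = 0.0229) and MT-ND3 (-0.18, adjusted p = 0.0468) passed 0.05 but not 0.001, against 0.589% of all genes lowered at 0.05. MT-ATP8 was called in 2 of 21 alternative settings, 1 of them without H1047R vehicle replicate 3 (edgeR adjusted p = 1.60e-04). By DESeq2 the adjusted p was 0.458 for MT-ATP8 and 0.369 for MT-ND3. The 95% confidence interval of MT-CO1 was -0.086 to 0.039 and that of MT-ND4 -0.12 to 0.028, on the log2 scale, in this comparison.

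With insulin present, H1047R lowered 11 of 13 mRNAs and MT-RNR1. MT-ATP8 (-0.77), MT-ND6 (-0.76), MT-ND3 (-0.73), MT-RNR1 (-0.66) and MT-CYB (-0.65) changed most on the log2 scale. MT-CO2 (-0.0077, -0.083 to 0.068), MT-RNR2 (-0.070, -0.13 to -0.0075) and MT-CO1 (-0.11, -0.17 to -0.047) were not called. The sign of the MT-CO2 value changed in 9 of 21 alternative settings. MT-CO1 did not overlap between the groups and was called without control insulin replicate 1 (edgeR adjusted p = 8.98e-04).

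MT-ND6, a complex I subunit, is the only mRNA on light-strand RNA. It stood at 142, 118 and 108 CPM in control vehicle, 98.3, 82.0 and 94.2 in control insulin, 98.3, 105 and 112 in H1047R vehicle and 53.4, 56.5 and 52.3 in H1047R insulin. Control insulin lay below control vehicle, and H1047R insulin lay far below all other libraries. Insulin lowered MT-ND6 by 25.7% in control cells (edgeR adjusted p = 6.96e-06) and by 48.4% in PIK3CA H1047R cells (adjusted p = 2.01e-15). By DESeq2 the first had an adjusted p of 0.00114 and the difference of the effects, -0.53, one of 0.00347, so neither was called by that tool.

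Against the summed 12 heavy-strand mRNAs, the log2 ratio of MT-ND6 was -7.05, -7.28 and -7.39 in control vehicle and -7.25, -7.62 and -7.43 in control insulin. It was -7.50, -7.44 and -7.30 in H1047R vehicle and -7.89, -7.81 and -7.92 in H1047R insulin. H1047R insulin did not overlap any other group. The difference between H1047R insulin and H1047R vehicle was -0.46 (exact permutation p = 0.1, the smallest possible, adjusted 0.145), and stratified by plasmid the insulin difference was -0.33 (exact permutation p = 0.015, adjusted 0.09).

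Mature tRNAs are short, folded and lack the tail that these libraries select. Over the 12 libraries they held 2569 of 8707547 mitochondrial counts, 2116 in the 8 light-strand rows and 453 in the 14 heavy-strand rows. MT-TP, MT-TQ and MT-TS1 held most, all 3 light-strand genes. MT-TK, MT-TG and MT-TR were never counted, and MT-TD, MT-TH, MT-TS2 and MT-TL2 fell below the filter. With insulin in PIK3CA H1047R cells 2 of 15 tested tRNA rows were called lower, against 9.8% of all genes. In control cells 0 were called by edgeR and by DESeq2, with 0 below an unadjusted p of 0.05 against 16.4% of all genes.

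MT-TP had 82, 100 and 51 counts in control vehicle, 83, 81 and 77 in control insulin, 71, 75 and 66 in H1047R vehicle and 37, 51 and 48 in H1047R insulin. H1047R insulin had the lowest normalised values although its libraries were the deepest. The insulin effect in PIK3CA H1047R cells was -1.16 (SE 0.17, edgeR adjusted p = 6.26e-07) and in control cells -0.071 (not called). The difference was -1.09 (edgeR adjusted p = 4.18e-04, DESeq2 adjusted p = 0.00174) and was called in 12 of 20 alternative settings. By edgeR the call was lost without control vehicle replicate 3 (adjusted p = 0.00181), control insulin replicate 1 (0.00148) or 3 (0.00109), H1047R vehicle replicate 2 (0.00136), or H1047R insulin replicate 1 (0.00159) or 3 (0.00178). Without regard to strand the difference was -0.070 (edgeR adjusted p = 0.708). Counted in that way, the insulin value in PIK3CA H1047R cells was 0.021, and reads of the opposite strand outnumbered those of the gene (91.0, 89.2 and 91.4% of the reads in control vehicle).

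MT-TS1, the tRNA-Ser gene that lies opposite the end of the MT-CO1 transcript, had 43, 24 and 30 counts in control vehicle and 28, 24 and 30 in control insulin. It had 21, 36 and 28 in H1047R vehicle and 20, 11 and 11 in H1047R insulin. Insulin gave -1.52 (SE 0.32, edgeR adjusted p = 1.73e-04) in PIK3CA H1047R cells. That call was lost without H1047R vehicle replicate 2 (edgeR adjusted p = 0.00356) or H1047R insulin replicate 2 (0.00247) or 3 (0.00316). Opposite-strand reads at MT-TS1 averaged 2550 per library against 25.5 on the strand of the gene. The part of imperfect strand marking in this row was not tested. MT-TQ had 40, 59 and 51 counts in control vehicle and 24, 27 and 43 in H1047R insulin and was not called in any comparison.

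Because the libraries keep strand, reads from the strand opposite to each gene could be counted too. Over the heavy-strand genes these are light-strand RNA, which the cell is known to remove quickly, and over MT-ND6 and the light-strand tRNAs they are heavy-strand RNA. Nuclear genes of at least 100 CPM (n = 2494) had a median opposite-strand share of 0.551% (quartiles 0.388% and 0.932%), which holds imperfect strand marking and antisense genes. Mitochondrial genes ranged from that level to far above it.

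The 12 heavy-strand mRNAs together had 4.52, 4.17 and 4.01% opposite-strand reads in control vehicle, 4.32, 3.51 and 3.67% in control insulin, 3.50, 3.83 and 4.07% in H1047R vehicle and 2.61, 2.84 and 2.58% in H1047R insulin. The last group lay below all others without overlap. The difference between H1047R insulin and H1047R vehicle was -1.13 percentage points (exact permutation p = 0.1, the smallest possible), and stratified by plasmid insulin gave -0.765 (exact permutation p = 0.015, adjusted 0.09). The nuclear median was 0.578% in H1047R vehicle and 0.472% in H1047R insulin, and its part in the mitochondrial difference was not tested.

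In control vehicle opposite-strand reads made up 21.0 ± 1.48% at MT-ND5, 7.25, 6.93 and 6.83% in the 3 libraries at MT-CYB and 6.21 ± 0.962% at MT-ATP8. At MT-RNR1 (0.523 ± 0.0594%), MT-RNR2 (0.697 ± 0.0702%) and MT-CO1 (0.967 ± 0.0750%) they were at about the level of the nuclear genes, so counts there cannot be read as light-strand RNA. At MT-ND6 73.0 ± 1.68% of reads were heavy-strand RNA, from the stretch over which the MT-ND5 mRNA is known to extend. That share was 79.9 ± 1.12% in H1047R insulin, where light-strand MT-ND6 was lowest.

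In a fit of the opposite-strand counts of 17260 genes, insulin lowered 5 of 28 tested members in control cells (FDR < 0.001, against 0.133% of all genes). In PIK3CA H1047R cells it lowered 16 (against 1.84%), among them all 13 mRNA genes. H1047R in insulin lowered 15 (against 2.35%), and the difference of the insulin effects was called for 8 (against 0.591%). H1047R in vehicle changed 0 by edgeR and 0 by DESeq2 (against 0.00579% lowered), with 15 below an unadjusted p of 0.05, all on the lower side, against 5.54% of all genes in either direction. DESeq2 called 4, 13, 11 and 2 members in place of 5, 16, 15 and 8.

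Light-strand RNA over MT-CYB stood at 153, 147 and 142 CPM in control vehicle, 122, 102 and 94.7 in control insulin, 132, 135 and 137 in H1047R vehicle and 40.9, 44.4 and 41.9 in H1047R insulin. All H1047R insulin libraries lay below every other library, and control insulin lay below both vehicle groups. The insulin effect was -0.47 (SE 0.057) in control cells and -1.67 (SE 0.059) in PIK3CA H1047R cells, with a called difference of -1.19 (edgeR adjusted p = 3.47e-26). On the strand of the gene the 2 effects were -0.26 and -0.82. Over MT-ND4 the opposite-strand effects were -0.47 and -1.22, and over MT-ND4L -1.01 and -1.69. Over MT-ND1 the spread was wide, with 41.0, 18.7 and 17.3 CPM in control insulin, and its call in the difference of the effects was lost by DESeq2 (adjusted p = 0.732). By edgeR it was lost without control vehicle replicate 1 (adjusted p = 0.00189) or 3 (0.00104), control insulin replicate 1 (0.242), H1047R vehicle replicate 2 (0.0661) or H1047R insulin replicate 3 (0.00650).

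In PIK3CA H1047R cells the opposite-strand value was lower than that of the gene's strand at 11 of 12 heavy-strand mRNAs (medians -1.08 and -0.49 on the log2 scale), and in control cells also at 11 of 12 (-0.34 and -0.21). Among the nuclear genes of at least 100 CPM the medians were -0.28 and -0.037 in PIK3CA H1047R cells and 0.020 and 0.016 in control cells. MT-CO3 was the exception in PIK3CA H1047R cells (-0.55 opposite, -0.59 on its strand). The difference between the strands was not tested gene by gene.

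**Figure D4:**
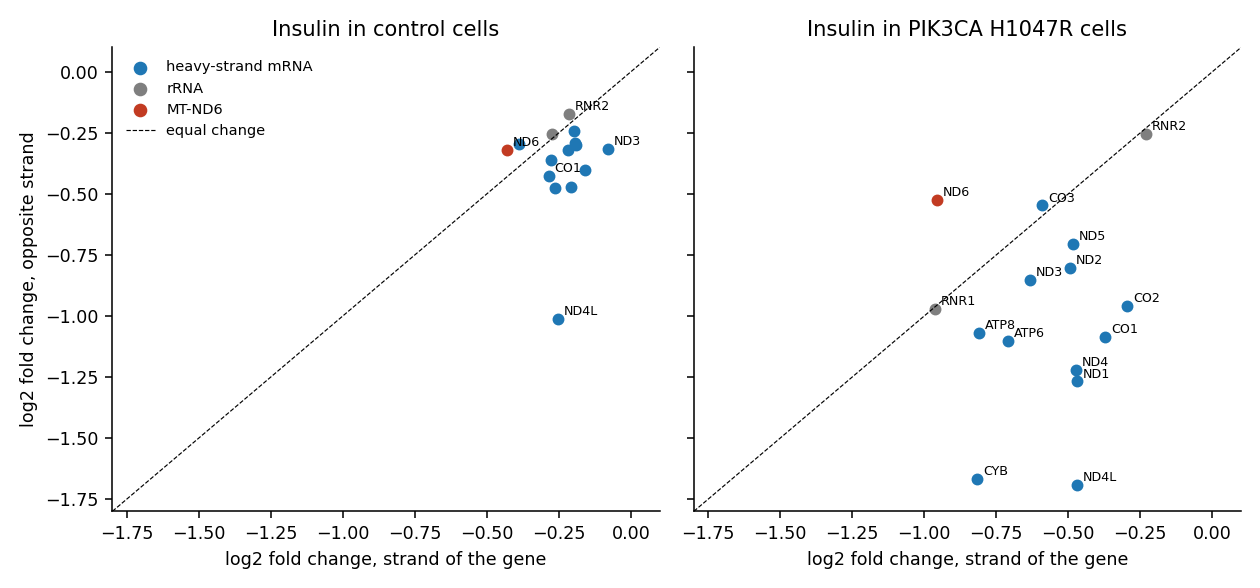
Each point is a gene, with the log2 fold change of insulin over vehicle on the gene's strand (x axis) and on the opposite strand (y axis) in control cells (left) and PIK3CA H1047R cells (right), and the dashed line marks equal change. On the right, 11 of 12 heavy-strand mRNAs lie below the line, MT-CYB and MT-ND4L farthest down (-1.67 and -1.69), and MT-ND6 lies above it.

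Heavy-strand RNA over light-strand genes gave unlike values by place, and part of it belongs to mRNAs that extend there. Over MT-TS1, opposite the end of the MT-CO1 transcript, the counts were 3307, 2936 and 2326 in control vehicle and 2791, 3215 and 2476 in control insulin. They were 2399, 3138 and 2471 in H1047R vehicle and 705, 1284 and 3552 in H1047R insulin, whose libraries were the deepest. The last group spanned a wider range than the other 9 libraries together, and in CPM it lay below all of them. The insulin value in PIK3CA H1047R cells was -1.11 and was called by edgeR, but DESeq2 gave an adjusted p of 0.124, and for the difference of the effects 0.750. By edgeR that difference was lost without H1047R insulin replicate 1 (adjusted p = 0.00110) or 2 (0.00477). Over MT-TP, after the end of the heavy-strand genes, the counts of heavy-strand RNA were 606, 738 and 651 in H1047R vehicle and 864, 987 and 1032 in H1047R insulin, and the insulin value was 0.015 (-0.13 to 0.16). Over MT-ND6, where the MT-ND5 mRNA is known to extend, the insulin value of heavy-strand RNA was -0.53 (edgeR adjusted p = 3.46e-18). The value of MT-ND5 on its own strand was -0.48.

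**Figure D5:**
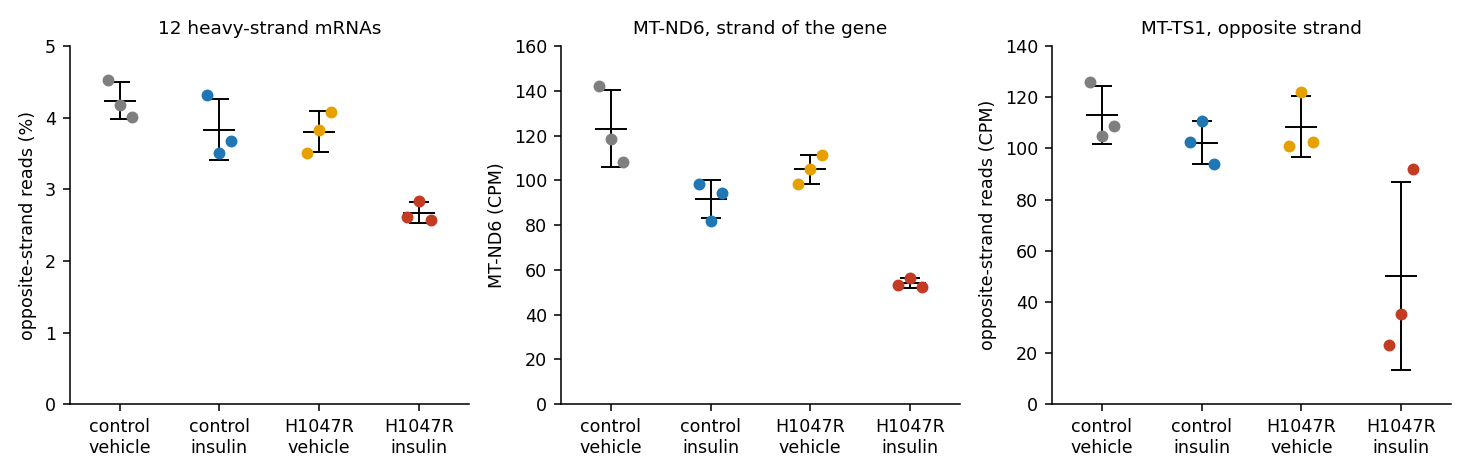
The panels plot, for each library (points) with group mean and SD (lines), the percent of opposite-strand reads at the 12 heavy-strand mRNAs, the CPM of MT-ND6 and the opposite-strand CPM at MT-TS1. H1047R insulin was lowest in each panel (2.68 ± 0.146% and 54.1 ± 2.15 CPM in the first 2). Its MT-TS1 values were widely spread and reached 92.1 CPM.

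Copies of mitochondrial sequence in the nuclear genome bear on these counts, because a read that fits a copy as well as the mitochondrial genome is not counted. Of the long copies, the most identical lies at hg38 chr1:629081-634924 and matches chrM:3911-9755 at 98.5% identity. The share of 50-base windows with an identical nuclear match was 50.6% for MT-CO1, 46.7% for MT-ATP6, 43.6% for MT-RNR1, 43.6% for MT-ND2, 29.0% for MT-CO2, 15.7% for MT-RNR2, 1.65% for MT-CYB and 0% for MT-ND3 and MT-ND4L. The windows are single stretches whereas reads were placed as pairs, so this share is not the share of reads lost. MT-ND3 and MT-ND4L, with 0%, had insulin values of -0.63 and -0.47 in PIK3CA H1047R cells. The part of read loss in these values was not tested. Across the 13 mRNAs the insulin value in PIK3CA H1047R cells had Pearson r = 0.25 with this share, 0.40 with log10 gene length and -0.57 with start position (13 genes that share libraries, a description only).

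Rows of nuclear copies held 0.573% to 0.704% as many counts as the mitochondrial genes, and 5 of 404 rows held 99.0% of them. MTATP6P1, the largest, stood at 109.7 ± 3.76 CPM in H1047R vehicle and 66.5 ± 2.34 in H1047R insulin. Its insulin value of -0.72 lay beside -0.71 for MT-ATP6, and reads of these near-identical copies cannot be assigned with certainty. MTND2P28 (-0.45), MTCO3P12 (-0.62), MTCO1P12 (-0.39, not called) and MTND4P12 (-0.48) were also negative. Short nuclear genes of at least 100 CPM had lower insulin values in PIK3CA H1047R cells than long ones, with medians of -0.30 below 700 bases of exon (6 genes), -0.17 from 700 to 1500 bases (41 genes) and -0.029 from 3000 bases up (2203 genes). The short members MT-ATP8, MT-ND3 and MT-ND4L were thus measured in libraries in which length moved with the value, and its part was not tested.

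Nuclear genes that act on mitochondrial DNA and RNA were listed in 4 groups of 54 genes in all, every one tested. Insulin changed 0 of them in control cells by edgeR and 0 by DESeq2 (10 below an unadjusted p of 0.05, against 16.4% of all genes), and in PIK3CA H1047R cells 10 rose and 5 fell (against 9.85% and 9.8% of all genes). H1047R changed 0 in vehicle by both tools (7 below an unadjusted p of 0.05, against 11.9% of all genes), and in insulin 10 rose and 7 fell. The background in insulin was 11.4% higher and 12% lower. The median log2 value of the 54 genes was 0.077 for insulin in PIK3CA H1047R cells.

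The transcription machinery showed small values. POLRMT, the polymerase, stood at 42.0 ± 2.09 CPM in H1047R vehicle and 46.3 ± 2.27 in H1047R insulin (log2 0.14, edgeR adjusted p = 0.0372, not called). H1047R in insulin raised it by 0.23. TFAM, which packs and bends mitochondrial DNA, was at 148 ± 2.21 CPM in control insulin and 129 ± 3.04 in H1047R insulin, and fell by 0.20 in that comparison (edgeR adjusted p = 1.45e-04). TFB1M, a 12S rRNA methyltransferase, rose there by 0.37, and MTERF3 rose with insulin in PIK3CA H1047R cells by 0.32. In total 1 of 10 genes of this list rose with insulin in PIK3CA H1047R cells and 0 fell, against 9.85% higher and 9.8% lower among all genes.

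Genes of mitochondrial RNA processing and decay gave 7 of 22 higher and 1 lower for insulin in PIK3CA H1047R cells, against 9.85% higher and 9.8% lower among all genes. PNPT1, the exonuclease of the mitochondrial RNA degradosome, rose from 51.2 ± 4.99 to 80.8 ± 5.61 CPM (log2 0.66, SE 0.057, edgeR adjusted p = 1.93e-12), and its difference of the insulin effects was 0.63. The deadenylase PDE12 rose with insulin in PIK3CA H1047R cells by 0.50. TRIT1, which modifies tRNAs, rose by 0.49. HSD17B10, a subunit of mitochondrial RNase P named after its values were seen, was the lower gene and fell from 78.2 ± 4.02 to 64.6 ± 2.63 CPM (log2 -0.27), with a called difference of -0.34. LRPPRC and SLIRP, the pair that binds and stabilises mitochondrial mRNAs, had insulin values of -0.091 and -0.16 in PIK3CA H1047R cells, neither called (edgeR adjusted p = 0.0523 and 0.0218).

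Among 14 genes of mitochondrial DNA replication and maintenance, 1 rose and 3 fell with insulin in PIK3CA H1047R cells, with the same 9.85% and 9.8% behind them. POLG, the DNA polymerase, also named after its values were seen, rose by 0.22, and RNASEH1 (-0.29), the nuclease-helicase DNA2 (-0.23) and MPV17 (-0.24) fell. TWNK, the helicase, rose with H1047R in insulin (0.40). Of 8 regulators of mitochondrial biogenesis, the coactivator PPRC1 rose with insulin in PIK3CA H1047R cells by 0.47 (edgeR adjusted p = 1.18e-10), with a called difference of 0.55, and YY1 fell (-0.22), 1 in each direction against 9.85% and 9.8% of all genes. GABPA, a subunit of the factor also called NRF-2, fell with H1047R in insulin (-0.33).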

How the data were processed

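RNA was sequenced from 12 libraries in 4 groups of 3. According to the methods, adapters were removed by Trim Galore with cutadapt, and STAR placed the reads on hg38 and counted them per gene for the authors. The deposited files hold raw counts per gene without regard to strand and on each strand, and the sources used here name no version of these tools and only a mouse annotation release. Counts of the reverse-strand column, used by the authors, were taken as the strand of the gene and the other as the opposite strand. The reverse column held 93.5% to 93.7% of the stranded counts.

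The tests covered genes with a mean of 1 count or more, 22756 on the strand of the gene and 17260 on the opposite strand. One model of the 4 groups was fitted in edgeR 4.0.16 (R 4.3.3) with TMM factors and quasi-likelihood tests, and p-values were adjusted by Benjamini-Hochberg at FDR < 0.001. Single values per library were compared by two-sided exact permutation tests in scipy 1.17.1, adjusted over 42 tests. DESeq2 1.42.0, other scalings, filters and strands, a replicate block and the omission of each library were the alternatives. The fit was tested on simulated data. Nuclear copies were found with blastn 2.17.0, and sequences were read from hg38. CPM uses gene counts as the denominator. Low counts limit the tRNA values most, and p-values set differences against the spread between these libraries.

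Values are given for all 13 mRNAs and both rRNAs, and tRNAs are named where called or among the 3 with most counts. POLRMT, TFAM, LRPPRC and SLIRP are always named, with up to 3 called genes of each list and comparison that changed most, and the 5 nuclear copies with most counts. The members and lists were chosen with earlier results of these data known.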

Additional observations from a re-analysis of the deposited data

Results flagged for a closer look

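The insulin effect differed between PIK3CA H1047R and control cells for 11 members on the strand of the gene, by the test of the difference itself (edgeR, FDR < 0.001). The log2 differences, PIK3CA H1047R minus control cells, were MT-RNR1 (-0.69), MT-ND1 (-0.31), MT-ND2 (-0.30), MT-ATP6 (-0.51), MT-CO3 (-0.40), MT-ND3 (-0.55), MT-ND4 (-0.27), MT-ND5 (-0.27), MT-ND6 (-0.53), MT-CYB (-0.55) and MT-TP (-1.09). All were negative. The MT-TP difference was called in 12 of 20 alternative settings and stood at -0.070 when strand was ignored.

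On the opposite strand the difference passed the same threshold for 8 members, namely MT-ND1 (-0.87), MT-CO1 (-0.66), MT-TS1 (-0.96), MT-CO2 (-0.60), MT-ATP6 (-0.86), MT-ND4 (-0.75), MT-ND5 (-0.39) and MT-CYB (-1.19). DESeq2 called 2 of the members there, MT-ND4 and MT-CYB. At MT-CO1 opposite-strand reads were at about the level of the nuclear genes and cannot be read as light-strand RNA. Its difference was called in 9 of 17 alternative settings and not by DESeq2 (adjusted p = 0.536).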

How the results depend on the processing

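In control cells insulin gave 13 calls of members without the filter on low counts, 13 with only the 2 groups in the fit and 14 at FDR < 0.05, and 6 to 13 when 1 library was left out. H1047R in vehicle gave 4 without the filter, 2 at FDR < 0.05 and 0 to 1 without 1 library. Left-out libraries gave 16 to 18 calls for insulin in PIK3CA H1047R cells, 13 to 14 for H1047R in insulin and 9 to 12 for the difference. MT-TP turned to 0.021 for insulin in PIK3CA H1047R cells when strand was ignored.

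On the opposite strand insulin in control cells gave 3 calls with scaling factors of that strand, 8 without the filter, 8 with the replicate block and 4 to 8 without 1 library. H1047R in vehicle gave 1 without the filter, 1 with the replicate block and 0 to 4 without 1 library. The difference gave 2 by DESeq2 and 5 with bias-adjusted deviances, both chosen after seeing the data, 5 with scaling factors of that strand and 4 to 11 without 1 library. At FDR < 0.05 the list genes gave 2, 26, 1, 35 and 15 calls for the insulin effect in control and in PIK3CA H1047R cells, the H1047R effect in vehicle and with insulin, and the difference. Calls of list genes without 1 library were counted at the stricter FDR threshold of the main tests, not at FDR < 0.05. In the same order of comparisons they were 0, 9 to 17, 0 to 1, 15 to 20 and 4 to 12. The causes were not tested. For members and insulin in control cells the count was 13 without H1047R vehicle replicate 1. For members and H1047R in vehicle the count was 1 without H1047R vehicle replicate 3. For opposite-strand members and insulin in control cells the count was 8 without H1047R vehicle replicate 1, 8 without H1047R vehicle replicate 3. For opposite-strand members and H1047R in vehicle the count was 2 without H1047R vehicle replicate 2, 4 without H1047R vehicle replicate 3. For opposite-strand members and the difference the count was 5 without H1047R insulin replicate 1, 4 without H1047R insulin replicate 3. For list genes and insulin in PIK3CA H1047R cells the count was 9 without H1047R vehicle replicate 3. For list genes and H1047R in vehicle the count was 1 without H1047R vehicle replicate 3. For list genes and the difference the count was 4 without control insulin replicate 3, 12 without H1047R vehicle replicate 1, 4 without H1047R vehicle replicate 2, 4 without H1047R insulin replicate 1.

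Without 1 library the stratified differences in percentage points ranged from 1.31 to 1.95 (insulin) and 1.31 to 1.95 (H1047R) for the rRNA share, -0.00786 to -0.00548 (H1047R) for the tRNA share, 2.66 to 3.73 (insulin) for the opposite-strand share of MT-ND6 and -2.85 to -2.41 (H1047R) for reads placed at several sites. Replicate numbers did not pair the libraries: over 18 pairs of the same number the correlation of deviations was -0.041 to 0.071, and apart from the counts above the block moved no count of members by over 1.5 times.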
